A study of Mus musculus with 12 samples.

Results

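The protein folding machinery of the mouse hippocampus was followed here through 78 genes that encode heat shock proteins, DNAJ proteins and subunits of the CCT chaperonin. These genes were taken by symbol from the 26409 genes listed in a table of TPM, a transcript level corrected for transcript length and library size, and only protein-coding genes with a value above 0 in at least 1 library were kept. They comprised 13 HSP70, 3 HSP90, 2 HSP60/10, 7 small HSP, 4 DNAJA, 13 DNAJB, 27 DNAJC and 9 CCT genes. A filter on low values, a mean of at least 0.1 TPM over all libraries, was passed by 77 of the 78, as by 18197 genes in all, and only *Dnajb8* fell below it.

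RNA was sequenced from dissected hippocampus of *Dek* constitutive knockout (cKO) and wild-type (WT) mice of both sexes, to ask what loss of DEK, a chromatin protein, does to hippocampal transcripts. There were 3 libraries of each genotype and sex, 12 in all, from mice 6 to 12 months old whose individual ages were not given. The cKO mice descend from a cross of *Dek* fl/fl mice with CMV-Cre mice, in which exons 3 and 4 of *Dek* were deleted in the germline, and the Cre transgene was then bred out. The deletion is therefore carried by every cell throughout life. The 3 female WT libraries carry C57 in their library names and the other 9 carry CMV, so the name and the female WT group cannot be told apart.

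Gene-level *Dek* lay between 44.2 and 51.9 TPM in the 6 WT libraries and between 5.55 and 9.25 TPM in the 6 cKO libraries, and these groups did not overlap. The Y-linked gene *Eif2s3y* went against the labelled sex in 2 libraries, with 72.7 TPM in the library labelled female cKO replicate 3 and 0.111 TPM in the library labelled male cKO replicate 1. The list medians and the smallest p-values by sex are therefore also given without these 2 libraries. Neuronal markers were present in each library, with a sum over 6 genes of 4730 to 5420 TPM, whereas the sum of 7 choroid plexus markers ranged from 47.9 to 4483 TPM. Another library, male cKO replicate 3, held 1267 TPM of the astrocyte gene *Gfap* against 208 to 437 TPM in the other 11. In whole tissue, fewer cells of a type and less RNA per cell cannot be told apart.

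Chaperones bind unfolded or partly folded proteins and keep them from aggregating. HSP70 proteins bind and release short exposed segments in cycles driven by ATP, DNAJ proteins bring them their clients and stimulate their ATPase, and HSP110 proteins exchange their nucleotide. HSP90 acts later, on nearly folded kinases and receptors, the ring-shaped CCT complex encloses actin and tubulin as they fold, and HSP60 with its lid HSP10 does the same work in mitochondria. Small HSPs hold clients without ATP. Heat shock factors switch on the heat-inducible members in the nucleus, and a separate unfolded protein response raises the members of the endoplasmic reticulum (ER). In neurons, DNAJ proteins also serve synaptic vesicles, whose clathrin coats are removed by HSP70 with auxilin.

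Both switches read short promoter motifs, and the stretches that follow are shown as examples of each motif in a heat-inducible or an ER chaperone. The heat shock element was searched as GAANNTTC or TTCNNGAA, each of which reads the same on both strands and which may overlap each other. The ER stress element was searched as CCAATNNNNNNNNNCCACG or its reverse complement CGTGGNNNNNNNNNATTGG. The sequences are RefSeq promoters of build GRCm38.p6, 250 bases before to 50 bases after each start site. Printed are the bases before the start site, on the strand of the gene, with each match in capitals and 25 bases on either side. The *Hspa1b* stretch lies at chr17:34959310-34959367, *Hsph1* at chr5:149636337-149636394, *Hspd1* at chr1:55088034-55088101, *Dnaja1* at chr4:40722319-40722376, *Hspa5* at chr2:34772000-34772068 and *Hsp90b1* at chr10:86705508-86705681. *Dnaja1* and *Hspa5* are on the plus strand and the others on the minus strand.
Hspa1b: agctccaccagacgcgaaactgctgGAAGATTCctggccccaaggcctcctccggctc
Hsph1: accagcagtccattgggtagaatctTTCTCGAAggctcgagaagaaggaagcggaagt
Hspd1: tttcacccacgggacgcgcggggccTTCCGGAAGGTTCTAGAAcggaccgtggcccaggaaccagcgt
Dnaja1: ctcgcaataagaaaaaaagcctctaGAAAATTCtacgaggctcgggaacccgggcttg
Hspa5: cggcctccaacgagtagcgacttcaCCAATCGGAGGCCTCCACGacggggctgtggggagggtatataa
Hsp90b1: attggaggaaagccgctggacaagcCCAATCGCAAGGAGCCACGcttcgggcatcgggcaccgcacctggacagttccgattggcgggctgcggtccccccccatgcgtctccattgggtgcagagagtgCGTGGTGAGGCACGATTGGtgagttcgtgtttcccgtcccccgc

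The *Hspd1* stretch holds 3 overlapping matches in a row, and the same stretch lies between the start sites of *Hspd1* and *Hspe1*, which are transcribed in opposite directions from points 216 bases apart. The *Hsp90b1* stretch holds 2 ER stress elements in opposite orientation. Of 82 listed promoters of 63 of these genes, 19 (23.2%) held a heat shock element, against 15.1% of 32851 promoters of all genes. The 11 chaperones listed as heat-inducible were *Hspa1a*, *Hspa1b*, *Hspa8*, *Hspa4l*, *Hsph1*, *Hsp90aa1*, *Hspd1*, *Hspe1*, *Hspb8*, *Dnaja1* and *Dnajb1*. Of these, 9 had a listed promoter, and 8 of their 14 promoters (57.1%) held the element, as did 1 of 8 promoters of ER chaperones (12.5%). The 8 are not all separate, as those of *Hspd1* and *Hspe1* share a stretch and those of *Hsph1* overlap. No listed promoter of *Dnajb1* or *Hspa4l* held it. The ER stress element was rarer, in 0.119% of all promoters and in 3 of 8 promoters of ER chaperones, those of *Hspa5*, *Hsp90b1* and *Dnajc3*. A match is a match of letters, and binding was not measured.

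The chaperones covered a wide range of levels, from genes listed at 0 in most libraries to *Hspa8*. As TPM is corrected for transcript length, levels of different genes can be set side by side. *Hspa8*, the constitutive cytosolic HSP70 that uncoats clathrin vesicles, had a mean of 1103 TPM over the 12 libraries. It was followed by *Hsp90ab1*, the constitutive cytosolic HSP90, with 928 TPM, and *Hsp90aa1*, its heat-inducible sister, with 702 TPM. These 3 genes held 42.4% of the TPM of all 78, whose sum ranged from 5986 to 7309 TPM, or 0.714% to 0.882% of the listed TPM of a library. A mean of at least 100 TPM was reached by 20 of the 78, 36 lay from 10 up to 100 TPM, 12 from 1 up to 10 TPM and 10 under 1 TPM.

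Each compartment had at least 1 abundant chaperone. In the ER these were *Hspa5*, or BiP, with 167 TPM and *Hsp90b1*, or GRP94, with 185 TPM. In mitochondria, *Hspa9* (mortalin) had 113 TPM, the chaperonin *Hspd1* 126 TPM and its lid *Hspe1* 132 TPM. In the cytosol, the HSP70 partner *Dnaja1* had 224 TPM and *Dnajb6*, which keeps polyglutamine proteins from aggregating, 158 TPM. The synaptic vesicle partners of HSP70 were as abundant, with 150 TPM of *Dnajc6* (auxilin) and 136 TPM of *Dnajc5* (cysteine string protein).

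The CCT complex is built of different subunits, and the levels of 7 of its listed genes lay close together. They ranged from 68.1 TPM for *Cct7* to 161 TPM for *Tcp1*. *Cct6a*, which is annotated as a processed transcript in GENCODE M21 and is therefore not among the 78, had a mean of 78.9 TPM. In contrast, the testis-type subunit gene *Cct6b* had a mean of 0.266 TPM and *Cct8l1* 0.489 TPM. *Dnajb8*, also a testis gene, was listed at 0 in 9 of 12 libraries and did not exceed 0.390 TPM.

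The inducible HSP70 genes *Hspa1a* and *Hspa1b* were low, with means of 9.73 and 11.98 TPM. They are near-identical copies, sharing 63.8% of the 31-base words of *Hspa1a* and 67.6% of those of *Hspa1b*, so the split of reads between them is uncertain. *Hspa8* shared 0% of its words with *Hspa1b*. *Hspb11* was the highest of the small HSP genes taken by symbol, with 22.2 TPM, and it encodes a protein of intraflagellar transport. The spread between libraries was small for the abundant chaperones. The coefficient of variation over the 12 libraries had a median of 7.36% for the 56 chaperones of at least 10 TPM and of 8.71% for all genes at that level, and it was 4.14% for *Dnajc5*, 5.08% for *Hspa9* and 22.5% for *Hspa1b*.

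**Figure D1:**
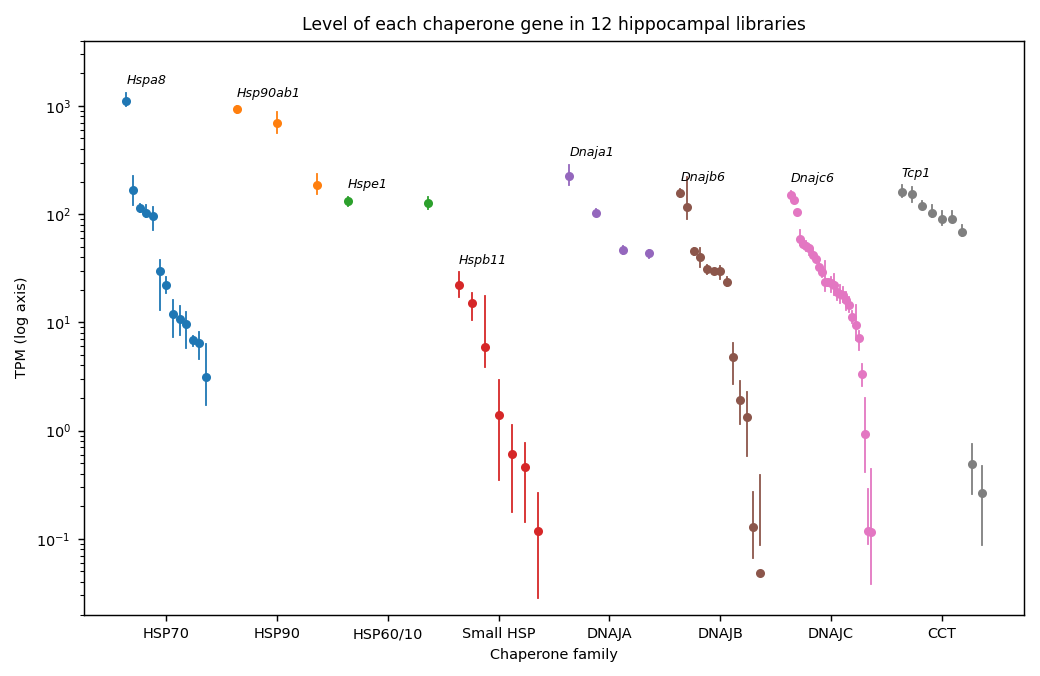
Level of each of the 78 chaperone genes in TPM on a log axis, by family, with the mean over 12 libraries as a point and a line from the lowest value above 0 to the highest. The lines of most genes above 10 TPM are short beside the distance between genes, and the highest gene of each family is named.

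Over both sexes, no chaperone differed between *Dek* cKO and WT hippocampus at an adjusted p under 0.05 (limma on log2(TPM + 0.1), Benjamini-Hochberg over all genes tested) and a fold change over 1.2. This count of 0 of 77 stood beside 0.148% of all genes tested. At an unadjusted p under 0.05, 2 of 77 were higher in cKO, where 4.84% of all genes were, and 2 of 77 were lower, where 1.8% of all genes were. No chaperone had its 6 cKO values all above the 6 WT values, as 0.572% of genes had, or all below them, as 0.104% had. The p-values measure the spread between these samples.

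The differences over both sexes were small, and for most abundant members the data bound them tightly. Log2 fold changes, cKO minus WT, had a median of -0.00 over the 77 chaperones, with 36 above 0, and of 0.02 over all genes tested, 55.8% of which were above 0. The 95% interval of the fold change stayed within 1.2-fold in either direction for 46 of the 56 chaperones of at least 10 TPM, and within 1.5-fold for 55 of the 56. The exception to the latter was *Hsph1*, described further on. Within a single sex the bounds were wider. In females 30 of the 56 stayed within 1.2-fold and 52 within 1.5-fold, and in males 30 and 51.

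The most abundant cytosolic HSP70 and HSP90 genes, *Hspa8* and *Hsp90ab1*, were close to equal in both genotypes. *Hspa8* had 1052, 1086 and 1185 TPM as the lowest, median and highest WT value and 1003, 1077 and 1318 TPM in cKO. Its log2 fold change was 0.01 ± 0.06 (SE), with an interval of -0.12 to 0.14. *Hsp90ab1* had 858, 973 and 998 TPM in WT and 856, 904 and 956 TPM in cKO, a log2 fold change of -0.05 ± 0.05. The values of both genes overlapped between genotypes. Some less abundant cytosolic HSP70 genes were less tightly bounded, as for *Hsph1*, whose interval ran from a fold change of 0.632 to 1.17.

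*Hsp90aa1* was more variable in cKO. It had 671, 715 and 751 TPM in WT and 557, 667 and 881 TPM in cKO, with a log2 fold change of -0.08 ± 0.09. The lowest cKO value came from the library labelled female cKO replicate 3 and the highest from male cKO replicate 3, and the WT values lay between them. *Hspa1b* had 8.56, 11.6 and 16.1 TPM in WT and 7.40, 12.3 and 15.9 TPM in cKO, a log2 fold change of -0.04 ± 0.18. For this inducible gene the interval, -0.43 to 0.36, left room for a fold change of 0.743 to 1.28.

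The chaperones of the ER and of mitochondria gave similar values. *Hspa5* had 147, 167 and 183 TPM in WT and 121, 163 and 227 TPM in cKO, and the cKO range enclosed the WT range. Its log2 fold change was -0.00 ± 0.12. *Hsp90b1* had 168, 185 and 201 TPM in WT and 152, 181 and 235 TPM in cKO, again with the WT range inside the cKO range, and a log2 fold change of -0.04 ± 0.09. *Dnajb9*, an ER partner of BiP, had a log2 fold change of -0.07 ± 0.07. The mitochondrial *Hspa9* was among the most even, with 109 to 117 TPM in WT and 105 to 125 TPM in cKO and a log2 fold change of -0.00 ± 0.05.

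The CCT subunits and the synaptic DNAJ genes were also close to equal in both genotypes. Log2 fold changes were -0.02 ± 0.06 for *Tcp1*, -0.01 ± 0.04 for *Cct2*, -0.04 ± 0.06 for *Cct5* and 0.01 ± 0.06 for *Cct8*. *Dnajc5* had 129, 134 and 144 TPM in WT and 129, 135 and 149 TPM in cKO, a log2 fold change of 0.02 ± 0.04. *Dnajc6* had 141, 154 and 164 TPM in WT and 142, 146 and 156 TPM in cKO, a log2 fold change of -0.04 ± 0.04. The intervals of both genes lay within a fold change of 0.910 to 1.08. Of the cytosolic partners, *Dnaja1* had a log2 fold change of -0.01 ± 0.09, *Dnajb1* of -0.02 ± 0.06 and *Dnajb6* of -0.05 ± 0.05.

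**Figure D2:**
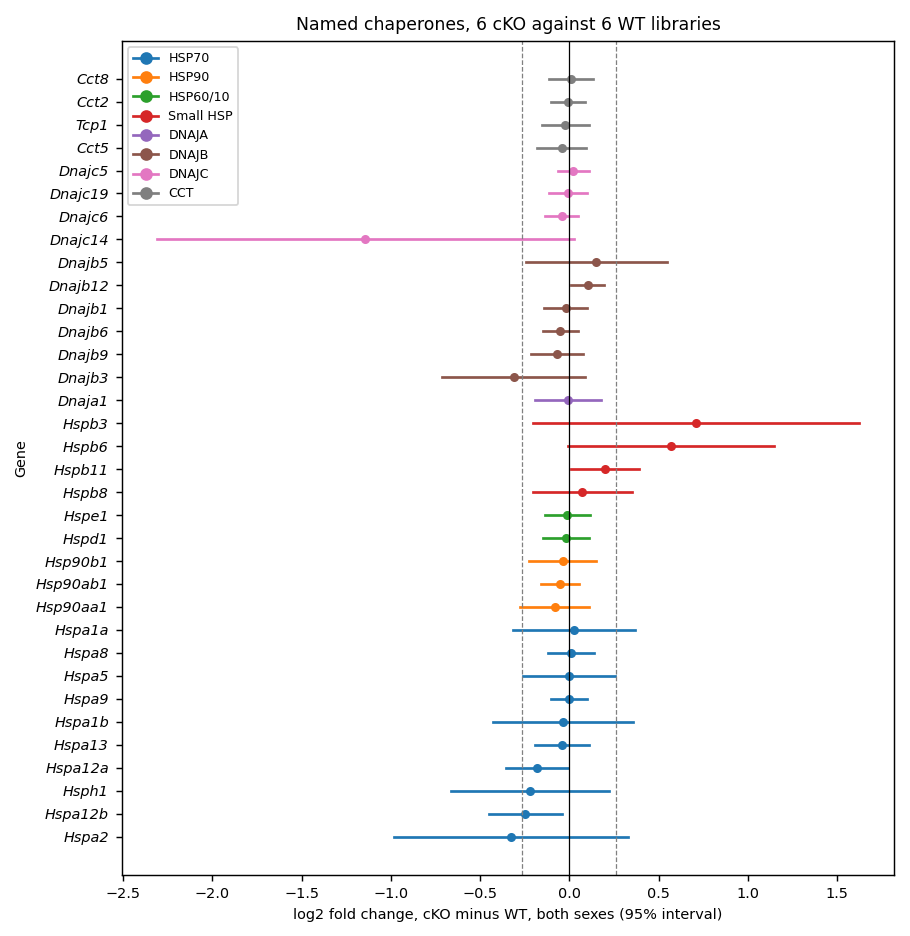
Log2 fold change of named chaperones, cKO minus WT over both sexes, with 95% intervals from limma on 6 libraries a genotype, coloured by family, and dashed lines at a 1.2-fold difference. The points of the abundant HSP70, HSP90, HSP60/10, DNAJ and CCT genes lie near 0, and the widest interval belongs to *Dnajc14*, which is listed at 0 in 1 library.

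The members with the smallest p-values were mostly at the edges of the group. *Dnajb12* is a DNAJ protein of the ER membrane, but was not among the genes listed as ER chaperones. It had 28.1, 29.9 and 31.3 TPM in WT and 30.0, 31.9 and 33.8 TPM in cKO. Its log2 fold change was 0.10 ± 0.04, with an unadjusted p of 0.0344 and an adjusted p of 0.704 by limma. *Hspb11* had 17.3, 20.4 and 24.3 TPM in WT and 21.7, 23.0 and 29.1 TPM in cKO, a log2 fold change of 0.20 ± 0.09 (limma unadjusted p = 0.0441, adjusted p = 0.738). The highest *Hspb11* value came from the library labelled female cKO replicate 3, and without it the log2 fold change was 0.14 with an unadjusted limma p of 0.103.

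The smallest p-values on the lower side belonged to the 2 atypical HSP70 genes. *Hspa12b*, known from endothelium, had 6.27, 6.92 and 8.08 TPM in WT and 4.63, 6.03 and 6.50 TPM in cKO, a log2 fold change of -0.25 ± 0.10 (limma unadjusted p = 0.0223, adjusted p = 0.664). The sum of 5 endothelial markers was 152 to 170 TPM in WT and 135 to 164 TPM in cKO, and its part in the difference was not tested. *Hspa12a*, the related gene of neurons, had 91.2, 102 and 116 TPM in WT and 71.4, 93.3 and 101 TPM in cKO. Its log2 fold change was -0.18 ± 0.08 (limma unadjusted p = 0.0395, adjusted p = 0.714), and -0.11 with an unadjusted limma p of 0.0672 without male cKO replicate 3, which holds the lowest value.

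*Hspb6*, a small HSP of muscle and vessel walls that astrocytes also make, came next on the higher side. It had 3.83, 4.17 and 5.75 TPM in WT and 4.81, 5.38 and 17.5 TPM in cKO. The log2 fold change of 0.57 ± 0.27 (limma unadjusted p = 0.0538, adjusted p = 0.762) was 0.28 without male cKO replicate 3, the library with 17.5 TPM, and the unadjusted p was then 0.0279. The sum of 7 markers of smooth muscle and pericytes was 74.2 TPM in that library and 61.8 to 84.0 TPM in WT, and its part in the value was not tested. *Dnajc14* was listed from 0.411 to 2.00 TPM in WT and from 0 to 1.05 TPM in cKO, and its log2 fold change of -1.14 ± 0.54 rests on these low values (limma unadjusted p = 0.0547).

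By family, HSP70 genes leaned lower and the small HSP genes taken by symbol higher, without single genes called. Of 13 HSP70 genes, 11 were below 0, with a median log2 fold change of -0.04. This count rested on the library labelled female cKO replicate 3, without which 7 of 13 were below 0 and the median was -0.02. Without male cKO replicate 3, 11 of 13 were below 0 and the median was -0.09. Of the 7 small HSP genes taken by symbol, 6 were above 0, with a median of 0.11. Among these 7, *Hspb2*, *Hspb7* and *Hspb9* had means of only 0.611, 0.119 and 0.460 TPM. The 7 markers of smooth muscle and pericytes gave 6 above 0 as well, with a median of 0.12 and a sum of 61.8 to 84.0 TPM in WT and 68.7 to 79.4 TPM in cKO, and *Cnn1* among them was at 0 in at least 1 library. By sex, 4 of 7 small HSP genes and 2 of 7 of these markers were above 0 in females, with medians of 0.20 and -0.17, and 6 of 7 and 7 of 7 in males, with medians of 0.47 and 0.30. Without the 2 libraries of conflicting sex the medians were 0.07 and -0.03 in females and 0.63 and 0.12 in males. The part of these cells in the small HSP values was not tested. *Cryab*, a small HSP gene that the symbol rule leaves out, was counted with the partners of chaperones below. Its log2 fold change was -0.08 ± 0.14 over both sexes, -0.05 in females and -0.11 in males. The DNAJB and DNAJC genes had medians of 0.04 and 0.02, and the CCT genes of -0.01, beside 0.02 for all genes. Among the heat-inducible chaperones, 3 of 11 were above 0, with a median of -0.02, and among the ER chaperones 4 of 9, with a median of -0.00. The heat-inducible list includes *Hspa8*, described above as constitutive, whose log2 fold change was 0.01.

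The partners and regulators of chaperones were counted as well. Of 47 such genes, among them the heat shock factors, BAG proteins, prefoldin subunits and HSP90 co-chaperones, none was called by limma over both sexes, beside 0.148% of all genes. At an unadjusted p under 0.05, 3 of the 47 were higher, where 4.84% of all genes were, and 2 were lower, where 1.8% were. The smallest p-values were those of *Aarsd1*, an HSP90 co-chaperone, with a log2 fold change of -0.13 ± 0.05 and an adjusted limma p of 0.596, and of *Stub1*, the ubiquitin ligase CHIP that marks chaperone clients for degradation, with -0.12 ± 0.04 and an adjusted limma p of 0.664. The median log2 fold change over the 47 was 0.03. By sex, 16 were above 0 in females and 31 in males, where 53.9% and 55.0% of all genes were. None was called in either sex, beside 0.0165% of all genes. *Ptges3*, singled out after its values were seen, had -0.21 ± 0.06 in females (limma unadjusted p = 0.00673, adjusted p = 0.708). Its male minus female difference was 0.31 ± 0.09 (limma unadjusted p = 0.00552, adjusted p = 0.966). These values include the 2 libraries of conflicting sex.

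Single libraries stood apart in many chaperones at once, among them male cKO replicate 3. It held the highest value of the 12 libraries for 28 of the 68 chaperones of at least 1 TPM, and no other library held more than 8. The share of all genes highest in male cKO replicate 3 is not given, so the count cannot be called particular to chaperones. All 7 CCT subunits above 1 TPM were highest there, as were 6 of the 11 heat-inducible and 4 of the 9 ER chaperones. *Hspa5* had 227 TPM in this library against 121 to 183 TPM in the other 11, and *Hsp90b1* 235 TPM against 152 to 201 TPM. *Dnajb5*, a cytosolic partner of HSP70 singled out after its values were seen, had 219.5 TPM against 89.3 to 136 TPM.

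The high values were not shared by all chaperones in that library, which was lowest for 8 of the 68. *Hspa1a* and *Hspa1b*, the genes with the strongest response to heat, were lowest there, with 5.80 and 7.40 TPM, as was *Hspa12a* with 71.4 TPM. Beside its 1267 TPM of *Gfap*, the library had 99.4 TPM of the astrocyte gene *Aqp4*, and 68.6 TPM of the astrocyte gene *Gja1* against 116 to 151 TPM elsewhere. The 5 astrocyte markers summed to 1700 TPM there, most of it *Gfap*, and to 652 to 960 TPM in the other 11 libraries. The median over the 5 markers of the log2 level relative to the median library was 0.134 there. It was 0.133 in the library labelled female cKO replicate 3, so the list as a whole did not set male cKO replicate 3 apart. The part of the astrocyte markers in the chaperone values was not tested.

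Low values gathered in 2 other cKO libraries. The library labelled female cKO replicate 3 was lowest for 16 of the 68 chaperones, including 6 of 9 ER chaperones, with 121 TPM of *Hspa5* and 152 TPM of *Hsp90b1*. *Hsph1*, the HSP110 partner of HSP70, had 13.1 TPM there, and 24.96 to 37.4 TPM in the other 11 libraries. Female cKO replicate 1 was lowest for 15 of the 68, including 6 of the 7 CCT subunits. The shares of all genes lowest in these 2 libraries are not given. As one cKO library held many highest values and 2 others many lowest, the cKO values of *Hspa5*, *Hsp90aa1*, *Hsp90b1* and *Dnaja1* enclosed the WT values.

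**Figure D3:**
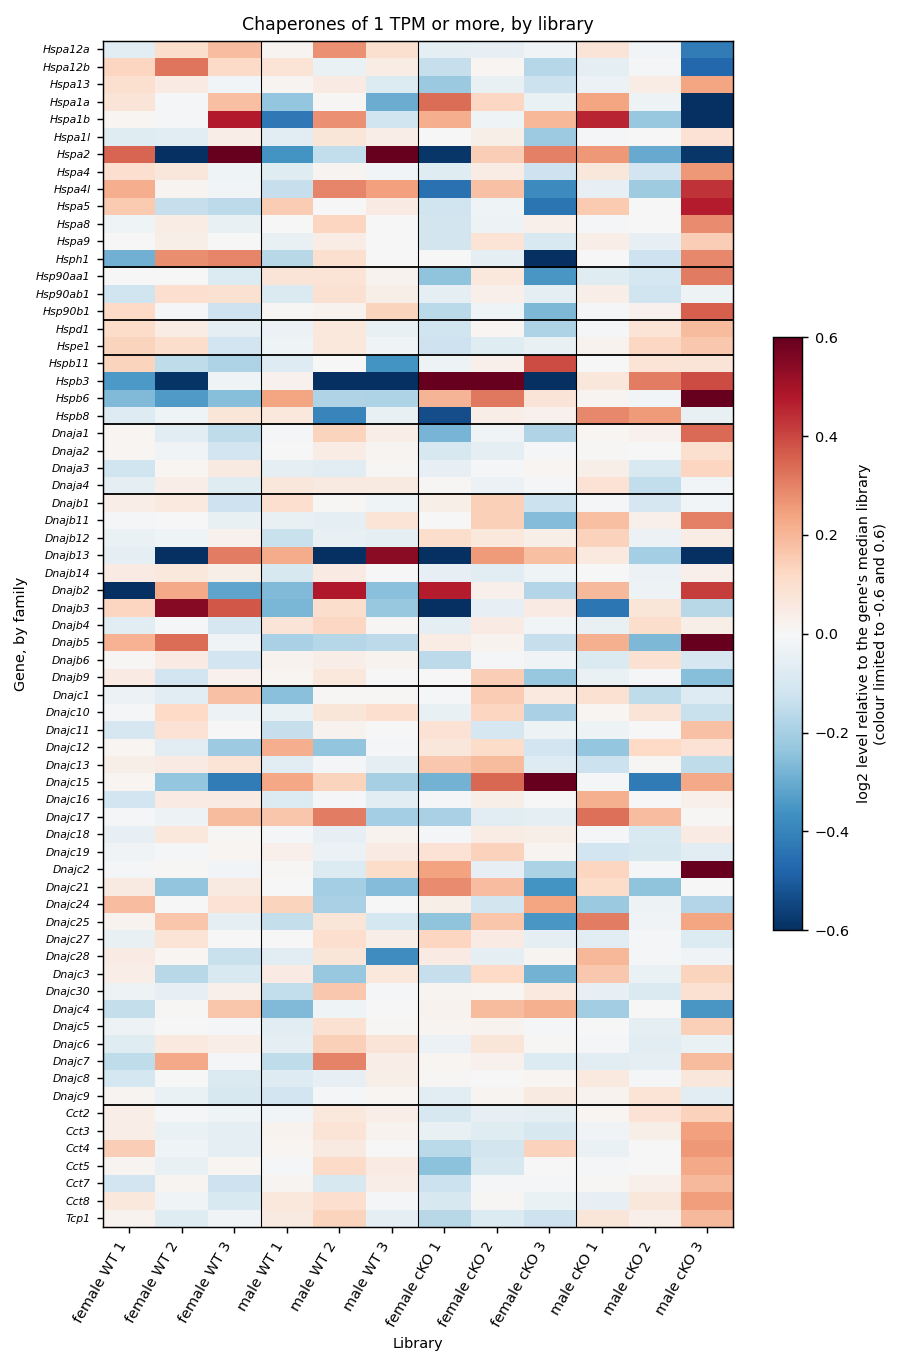
Heat map of the 68 chaperones of at least 1 TPM, with a row for each gene by family and a column for each of the 12 libraries, coloured by the log2 level relative to the median library of the gene. The column of male cKO replicate 3 is mostly red, with 28 genes at their highest, while *Hspa1a*, *Hspa1b* and *Hspa12a* are blue there.

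The sexes were compared next, as the study asked whether DEK loss acts differently in females and males. In females, 0 of 77 chaperones were called by limma, beside 0.0165% of all genes. At an unadjusted p under 0.05, 0 were higher, where 3.91% of genes were, and 2 were lower, where 1.88% of genes were. In males, 0 of 77 were called, beside 0.0165% of genes, and 0 were higher and 0 lower at an unadjusted p under 0.05, where 3.68% and 1.78% of genes were.

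The 2 genes lower in females at an unadjusted p under 0.05 were both rare. They were *Dnajc14*, at 1.73, 2.00 and 0.411 TPM in WT females and at 0.644, 0 and 0.556 TPM in cKO females, and *Dnajb3*. The latter is a testis-type DNAJ gene singled out after its values were seen. *Dnajb3* had 2.11, 2.86 and 2.52 TPM in female WT and 1.15, 1.85 and 2.00 TPM in female cKO, without overlap, and a log2 fold change of -0.58 ± 0.25 (limma unadjusted p = 0.0376, adjusted p = 0.845). The share of all genes without overlap between the female groups is not given. In males *Dnajb3* had 1.57, 2.08 and 1.63 TPM in WT and 1.40, 2.03 and 1.71 TPM in cKO, which overlapped. Without the 2 libraries of conflicting sex, the female log2 fold change was -0.72 for *Dnajb3* (limma unadjusted p = 0.0217, adjusted p = 0.464) and -2.20 for *Dnajc14* (limma unadjusted p = 0.0337, adjusted p = 0.513).

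Female log2 fold changes had a median of -0.03 over the 77 chaperones, with 31 above 0, against 0.01 over all genes, 53.9% of which were above 0. For the HSP70 genes 1 of 13 was above 0, with a median of -0.12, for the heat-inducible chaperones 2 of 11, with -0.12, and for the ER chaperones 1 of 9, with -0.06. Without the library labelled female cKO replicate 3 these counts were 2 of 13 with a median of -0.06, 2 of 11 with -0.08 and 5 of 9 with 0.02. With both libraries of conflicting sex left out, the median over the 77 was -0.01 in females, with 36 above 0, and 0.05 in males, with 50 above 0. The heat-inducible chaperones are raised by stress, as immediate early genes are by neuronal activity. Of 12 immediate early genes, 0 were above 0 in females, with a median log2 fold change of -0.39, and 9 were above 0 in males, with a median of 0.29. Without the 2 libraries of conflicting sex, 4 were above 0 in females, with a median of -0.20, and 7 in males, with a median of 0.05. The part of handling or activity in the chaperone values was not tested.

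Male log2 fold changes had a median of 0.04, with 47 of 77 above 0, against 0.02 over all genes, 55.0% of which were above 0. Without male cKO replicate 3 the median was -0.01, with 35 of 77 above 0. The CCT genes changed from 7 of 9 above 0, with a median of 0.05, to 3 of 9 above 0, with a median of -0.04, and the ER chaperones from a median of 0.09 to 0.01, when this library was left out. Without the 2 libraries of conflicting sex the values moved the other way, to a median of 0.08 for the CCT genes, with 7 of 9 above 0, and of 0.14 for the ER chaperones, with 6 of 9 above 0.

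In the test of the difference between the sexes, male minus female effect, 0 of 77 chaperones were called by limma, as were 0% of all genes. At an unadjusted p under 0.05, 2 were higher, where 2.07% of genes were, and 1 was lower, where 2.16% of genes were. *Hspe1* had 142, 139.6 and 119.9 TPM in female WT and 119, 123 and 126 TPM in female cKO. It had 127, 136 and 128 TPM in male WT and 132, 141 and 145 TPM in male cKO. The difference of the effects was 0.22 ± 0.10 on the log2 scale (limma unadjusted p = 0.0483, adjusted p = 0.966), and the values of the genotypes overlapped in each sex.

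*Hspd1*, which shares its promoter stretch with *Hspe1*, gave nearly the same difference, 0.22 ± 0.10 (limma unadjusted p = 0.0532). It had 136, 129.6 and 120.3 TPM in female WT, 115, 127 and 111 TPM in female cKO, 123, 131 and 122 TPM in male WT and 124, 133 and 143 TPM in male cKO. The other 2 genes were *Hspa13*, an HSP70 of the ER, with a difference of 0.26 ± 0.12 (limma unadjusted p = 0.0496), and *Dnajc19*, part of the mitochondrial import motor, with -0.19 ± 0.08 (limma unadjusted p = 0.0273). The adjusted limma p was 0.966 for both. On all libraries, 48 of the 77 differences were above 0, where 51.3% of all genes were. Without the 2 libraries of conflicting sex, a fit for which shares of all genes are not given, 3 chaperones were higher and 2 lower at an unadjusted p under 0.05. The median difference over the 77 was then 0.06, with 45 above 0. The difference was then 0.28 for *Hspe1*, 0.23 for *Hspd1*, 0.33 for *Hspa13* and -0.21 for *Dnajc19*, with adjusted limma p-values from 0.465 to 0.564.

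*Hsph1* shows how far 1 library moved a value. It had 24.96, 37.0 and 37.4 TPM in female WT and 30.4, 29.3 and 13.1 TPM in female cKO, a log2 fold change of -0.52 ± 0.28 (limma unadjusted p = 0.0896, adjusted p = 0.884). Without the library labelled female cKO replicate 3 the female log2 fold change was -0.13, and over both sexes it moved from -0.22 to -0.02. In males it had 27.2, 32.6 and 30.6 TPM in WT and 30.6, 28.0 and 37.3 TPM in cKO. The values of *Hsph1* overlapped between genotypes in each sex.

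**Figure D4:**
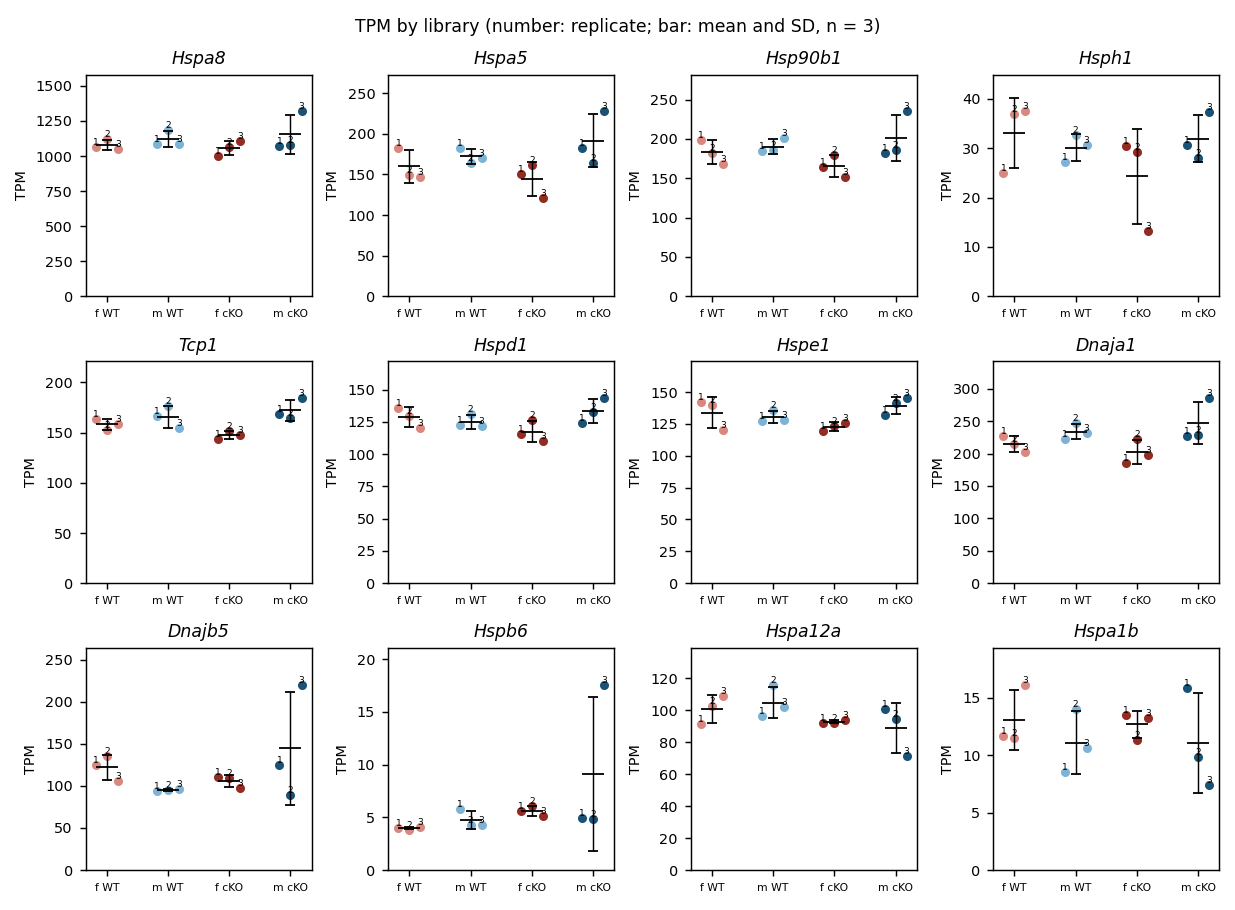
TPM of 12 chaperones in each library, by sex (f, m) and genotype, with the replicate number beside each point and bars for the mean and SD of 3 libraries; each axis starts at 0. Male cKO replicate 3 is the highest point for *Hspa8*, *Hspa5*, *Hsp90b1*, *Dnajb5* and *Hspb6* and the lowest for *Hspa12a* and *Hspa1b*, and female cKO replicate 3 is the lowest for *Hsph1*.

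**Figure D5:**
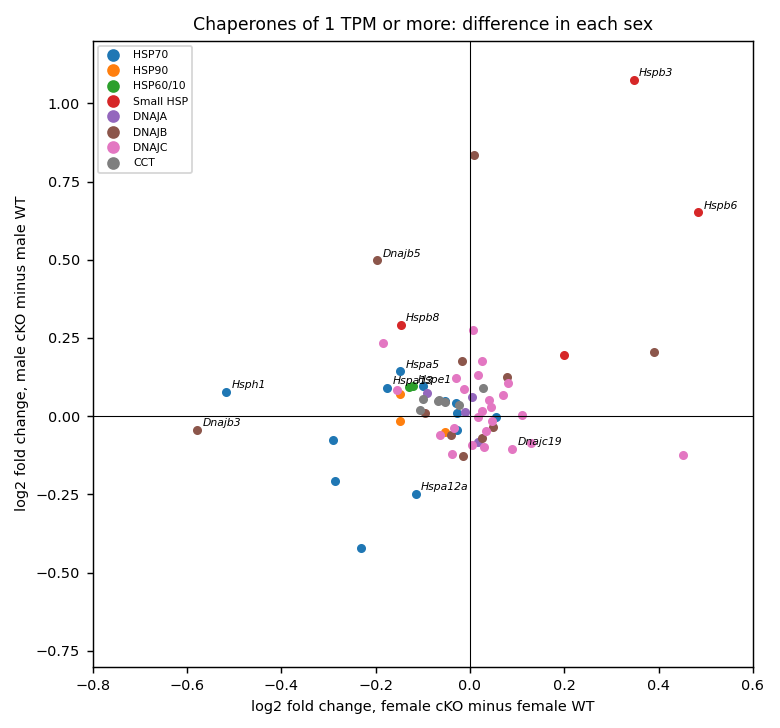
Log2 fold change, cKO minus WT, in females (x axis) and males (y axis) for the 68 chaperones of at least 1 TPM, coloured by family. Most points lie near 0 on both axes, while *Hspb6* and *Hspb3* are above 0 in both sexes and *Dnajb5* and *Hsph1* differ in sign between them, none of which passed the test.

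The small HSP gene *Hspb3*, a muscle chaperone singled out after its values were seen, had the highest log2 fold change over both sexes, 0.71 ± 0.42 (limma unadjusted p = 0.116, adjusted p = 0.848). It had 0.442, 0.997 and 1.44 TPM in WT and 0.351, 1.82 and 2.95 TPM in cKO. The lowest cKO value came from the library labelled female cKO replicate 3, and the other 5 cKO values were 1.48 TPM and above. The gene was singled out by these values, and the share of all genes with such a pattern is not given. No difference is therefore read from them. Leaving out 1 library at a time gave log2 fold changes from 0.53, without male WT replicate 3, to 1.09, without female cKO replicate 3.

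Finally, 3 relations between single genes were computed over the 12 libraries with a two-sided permutation test. *Hspa1b* and *Hspa5*, markers of the cytosolic and the ER response, gave r = -0.59 (permutation p = 0.0443, adjusted p = 0.133) and rho = -0.43 (permutation p = 0.161, adjusted p = 0.483). Without female WT replicate 3 and male cKO replicate 3, the 2 libraries farthest from the median of *Hspa1b*, r was -0.24. It was -0.59 within the 9 CMV-named libraries, which leave out the former and keep the latter. *Hspa1b* with its partner *Dnajb1* gave r = -0.28 (permutation p = 0.384, adjusted p = 0.518) and rho = -0.22 (permutation p = 0.489, adjusted p = 0.734). *Fos* with *Hspa1b* gave r = -0.21 (permutation p = 0.518, adjusted p = 0.518) and rho = -0.09 (permutation p = 0.786, adjusted p = 0.786). Without the 2 libraries farthest from the median of the first gene of each pair, these were r = -0.23 and r = -0.32. Within the 9 CMV-named libraries the 3 relations gave r = -0.59, -0.12 and -0.20.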

How the data were processed

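The authors deposited 1 table of TPM with a column for each of 12 libraries of poly-A selected hippocampal RNA. The labels name kallisto and mm10, whereas the paper describes STAR and Salmon, and which of them wrote the table is not given in the sources used here. The paper states a read depth common to the samples, but TPM keeps none, so the depth of each library cannot be read from the table and no count test was run. Columns summed to 825750 to 845553 TPM.

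Ensembl IDs were looked up in GENCODE M21, which held 25245 of the 26409. The chaperones and gene lists were chosen with earlier results of these data known. One gene under the rule is not reported here, 1 was 0 in each library, and 12 symbols were not protein-coding. Values were tested as log2(TPM + 0.1), a scale that understates changes of low genes, with limma 3.58.1 (R 4.3.3, trended prior variance, two-sided) in 2 groups of 6, and in 4 groups of 3 for each sex and the interaction. Genes were called at adjusted p under 0.05 and fold change over 1.2. The code of the fit was run on simulated libraries with independent noise. That run does not cover libraries in which many genes deviate together. Relations used 100000 permutations.

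Genes named are core chaperones fixed with the design, the 3 smallest p-values in each direction and in the interaction, and the highest of each family. *Dnajb5*, *Dnajb3* and *Hspb3* were added after their values were seen. Alternatives covered the pseudocount, the filter, the scaling, the variance prior, sex, the replicate block, library names and each library left out. The fit on the CMV-named libraries set cKO of both sexes against male WT only, so genotype and sex are mixed in it.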

Additional observations from a re-analysis of the deposited data

Results flagged for a closer look

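In each genotype of 6 libraries, the highest and lowest library of each named chaperone and of each family sum was compared with its nearest neighbour, and a gap that passed Dixon's 95% critical value for 6 samples was taken as standing apart. This held in 10 of 84 groups, where chance gives about 1 in 20, and in 6 of the 10 the library was male cKO replicate 3. These groups are not independent, as *Dnajb5* was added after its values were seen and the HSP70 and DNAJB sums contain *Hspa8* and *Dnajb5*, so the counts cannot be read against that share. The library had 1318 TPM of *Hspa8*, 17.5 TPM of *Hspb6*, 219.5 TPM of *Dnajb5* and a low 71.4 TPM of *Hspa12a*, and its summed HSP70 level was 1968 TPM and its summed DNAJB level 583 TPM. It is also the library with 1267 TPM of *Gfap*, whose part in these values was not tested.

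The other 4 were single values. Male WT replicate 1 had 5.75 TPM of *Hspb6*, male WT replicate 2 had 11.6 TPM of *Hspb8*, and female WT replicate 3 had a low 147.6 TPM of *Dnajb6*. *Hspb11* was at 29.1 TPM in female cKO replicate 3, 1 of the 2 libraries of conflicting sex.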

How the results depend on the processing

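No chaperone was called by limma in any alternative fit of any comparison, and the smallest adjusted p of a member in any of them was 0.277. The log2 fold changes of 17 of 34 named members turned their sign without 1 library or another, and none of the 34 passed the test. The counts at an unadjusted p under 0.05 moved with most settings. Shares of all genes in the alternative fits are not given, so these counts cannot be set against them. Over both sexes the 2 higher members became 1 with median ratio rescaling, quantile normalization, a prior variance without trend or the CMV-named libraries only, and the 2 lower members became 1 without the trend, 4 without the 2 libraries of conflicting sex and 0 in the CMV-named libraries. In females the 0 higher became 1 in a fit on that sex alone and 2 without the conflicting libraries, and the 2 lower became 1 with a filter at 1 TPM and 4 with either rescaling. In males the 0 higher became 1 without a filter, in a fit on that sex alone or without the conflicting libraries, and the 0 lower became 1 without a filter or the conflicting libraries and 2 with median ratio rescaling. In the interaction the 2 higher became 1 with a filter at 1 TPM and 0 without the trend, and the 1 lower became 2 without the conflicting libraries. The causes were not tested.

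The replicate numbers did not pair the samples, as deviations of same-numbered libraries correlated between -0.038 and 0.045. With the replicate block, the counts were 0 higher and 2 lower over both sexes, 0 higher and 1 lower in females, 1 higher and 0 lower in males, and 1 higher and 0 lower in the interaction.

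Without each library in turn, the counts over both sexes ranged from 0 to 4 higher and 0 to 3 lower, in females from 0 to 2 and 0 to 6, in males from 0 to 6 and 0 to 2, and in the interaction from 0 to 4 and 0 to 2. Over both sexes, 4 were higher without female cKO replicate 3 and 0 without female cKO replicate 2, and 0 were lower without female WT replicate 2. In females 6 were lower without female cKO replicate 2, and in males 6 were higher without male cKO replicate 2. The shares of all genes without these libraries are not given, so a shift particular to chaperones cannot be read from the counts. The median log2 fold change of the members ranged from -0.0299 to 0.0127 over both sexes, from -0.0546 to -0.0086 in females, from -0.0056 without male cKO replicate 3 to 0.0640 in males, and from 0.0268 to 0.1142 in the interaction, the last without male cKO replicate 2.

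Several log2 fold changes near 0 over both sexes turned their sign. Without the conflicting libraries they were -0.0338 for *Hspa1a*, 0.0718 for *Hspa5*, 0.0122 for *Hspa9*, 0.0238 for *Hsp90b1*, 0.0273 for *Hspd1*, -0.0028 for *Hspb8*, 0.0251 for *Dnaja1*, 0.0067 for *Dnajb1*, 0.0048 for *Cct2* and 0.0142 for *Dnajc19*. In the CMV-named libraries, where all WT libraries were male, they were 0.0888 for *Hspa1b*, -0.0197 for *Hspa8*, 0.0037 for *Hspa9*, 0.0003 for *Hspd1*, 0.0053 for *Hspe1* and -0.0286 for *Cct8*. With median ratio rescaling they were -0.0102 for *Hspa8* and -0.0105 for *Cct8*. Leaving out 1 library gave ranges of -0.0455 to 0.1707 for *Hspa1a*, -0.1285 to 0.0912 for *Hspa1b*, -0.0445 to 0.0341 for *Hspa8*, -0.0946 to 0.0870 for *Hspa5*, -0.0313 to 0.0203 for *Hspa9*, -0.1131 to 0.0124 for *Hsp90b1*, -0.0580 to 0.0167 for *Hspd1*, -0.0426 to 0.0141 for *Hspe1* and -0.0802 to 0.0434 for *Dnaja1*. They were -0.0531 to 0.0017 for *Dnajb1*, -0.0034 to 0.0399 for *Dnajc5*, -0.0640 to 0.0082 for *Tcp1*, -0.0354 to 0.0117 for *Cct2*, -0.0937 to 0.0010 for *Cct5*, -0.0389 to 0.0301 for *Cct8*, -0.0357 to 0.0144 for *Dnajc19* and -0.0252 to 0.2342 for *Dnajb5*. With 3 libraries a group, differences of low members were poorly bounded.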
